A study of Mus musculus with 51 samples.

Results

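The genes described here are the ribosomal protein genes of the mouse, taken by symbol: every gene whose annotated symbol begins with Rpl or Rps and a digit, with Rplp0, Rplp1, Rplp2 and Rpsa, and without the Rps6k kinases and the pseudogenes. The rule found 66 of the 16593 genes named on the array. Of these 66, 32 belong to the large subunit, 23 to the small subunit and 3 to the stalk, 6 are paralogues of another ribosomal protein gene (Rpl3l, Rpl7l1, Rpl22l1, Rpl36al, Rpl39l and Rps27l), and 2 are not ribosomal proteins. Those 2 are Rps19bp1, which encodes a binding protein of Rps19, and Rps23rg1, a retrogene of Rps23. Where a gene had several probes, the probe with the highest mean intensity stood for it.

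The study reprogrammed embryonic fibroblasts with the factors Oct4, Klf4, Sox2 and c-Myc, switched by doxycycline, and measured RNA on 51 single-colour bead arrays. All cells were labelled as coming from rtTA mice, which carry the doxycycline-dependent transactivator. The arrays fell into 17 groups, of which 7 held a single array.

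The fibroblast group held 1 array of primary fibroblasts from an E15.5 embryo and 1 of secondary fibroblasts at day 0 of the secondary course. At day 16 of primary reprogramming, in medium with doxycycline, 6 clonal lines were labelled F-class and 22 were labelled C-class. Each clone gave 1 array, and clone 1 of the F-class was measured again at day 30. The secondary course, from 1 line named 1B, had 1 array each at day 2, day 5, day 8, day 11, day 16 and day 18, of which the last 2 were labelled F-class. Doxycycline-independent iPSC (1 secondary and 1 primary array) and ESC (2 replicates) were the pluripotent references. Separately, 2 Tet-Myc lines were measured with doxycycline and after 48 h without it. F-class cells were measured at 0 h, 24 h and 48 h of an HDAC inhibitor (HDACi), with 2 replicates at each time, and the labels do not name the compound. Both iPSC arrays and the secondary fibroblasts carry the same line name, 1B, as the secondary course. The labels do not say whether the ESC and HDACi replicates were separate cultures, and p-values then cover no more than the spread from array to array, which may be technical.

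Ribosomal proteins are built in the cytoplasm, imported into the nucleolus and assembled onto ribosomal RNA, and their mRNAs are among the most abundant in a growing cell. Their transcripts usually begin with a run of pyrimidines, the terminal oligopyrimidine (TOP) tract, through which growth signals control their translation. Myc is known to raise transcription of ribosomal protein and ribosome biogenesis genes, and free Rpl5 and Rpl11 bind Mdm2 when ribosome assembly fails, which stabilises p53.

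Levels are given as normalized log2 intensities. Median raw intensity per array ran from 108.7 to 212.1, the brightest probe per array from 56148 to 68704, and 46.6% to 53.4% of probes were detected (detection p under 0.05). The mean level of 8 pluripotency markers was 4.88 and 5.10 in the fibroblasts, 8.58 to 10.17 in the F-class clones and 13.06 and 13.18 in ESC, and at most 1 of the 8 was detected on a fibroblast array. The mean of 8 fibroblast markers was 10.99 and 11.52 in fibroblasts, 6.09 to 6.49 in F-class clones, 8.18 and 8.30 in iPSC, and 8.78 and 6.96 in the ESC replicates. Of the 7 macrophage and blood markers considered, 5 are on the array. Their mean was 8.90 in ESC replicate 1 against 5.41 in ESC replicate 2, and 7.19 in the secondary fibroblasts against 5.36 in the primary ones. In ESC replicate 1, Lyz2 (13.79), Cd52 (11.31) and Tyrobp (10.02) were high, while Ptprc (4.76) and Fcer1g (4.63) were not. On that array and on the secondary fibroblast array 3 of the 5 were detected. The arrays of the clones, the primary fibroblasts and ESC replicate 1 were deposited with 1 decimal and all others with several decimals.

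Ribosomal protein probes sat at the top of the intensity range. Of the 66 genes, 42 (63.6%) had a probe in the brightest 1% of all probes, where 217 genes (1.31% of the array's genes) lay. The brightest was Rplp1, an acidic stalk protein, with a mean level of 15.89 and raw intensities between 55510 and 68704. Next came Rps12 and Rps2 of the small subunit and Rpl9 and Rpl41 of the large subunit, all at mean levels of 15.77 to 15.82.

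After quantile normalization, which sets the highest values alike on every array, these bright probes had low SDs. The median SD over arrays was 0.164 for the 42 bright members and 0.255 for all genes in that range. Rplp1, Rps12 and Rpl41 had the lowest SDs, at 0.05, 0.07 and 0.07 (n = 51). In the 16 members of intermediate level the median SD was 0.53, against 0.518 for all genes of that range. Under median scaling the per-array median of 55 members detected on all arrays ran from 14.33 to 15.38, against 14.48 to 15.10 after quantile normalization, so low SDs were not read as constant mRNA. The most variable members were Rpl3l (SD 0.86), Rps15a (0.67), Rps19bp1 (0.64), Rpl14 (0.61) and Rpl29 (0.61). A further 8 members were detected on 25 or fewer of the 51 arrays: Rpl17 and Rps23 on 0 arrays, Rps23rg1 on 1, Rpl39l (a testis paralogue of Rpl39) on 3, Rplp2 on 10, Rpl3l on 16, Rpsa on 21 and Rpl6 on 22. Rpl17, Rps23, Rplp2, Rpsa and Rpl6 are core ribosomal proteins, so the low readings of these probes were not read as low mRNA levels.

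**Figure D1:**
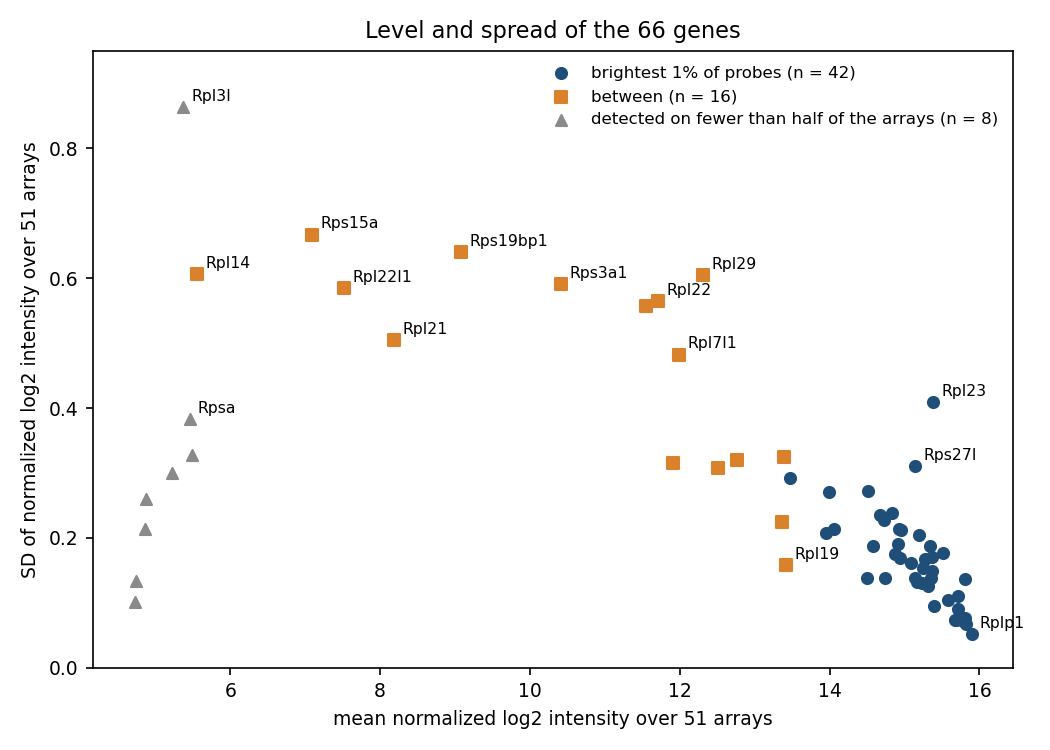
Mean level (x axis, normalized log2 intensity) and SD (y axis) over 51 arrays for each of the 66 genes; circles are the 42 genes in the brightest 1% of probes, squares the 16 between, triangles the 8 detected on 25 or fewer of the 51 arrays. The SD falls towards the right edge, down to 0.05 for Rplp1, and is highest for Rpl3l at 0.86.

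The first comparison asked how ribosomal protein mRNA differed between fibroblasts and the clones that came from them. In F-class clones 28 members rose and 2 fell among the 63 that passed the detection filter, and in C-class clones 30 rose and 2 fell (limma, Benjamini-Hochberg adjusted p under 0.05 over 11050 genes). These are 47.6% and 50.8% of the members, beside 58.8% and 60.1% of all genes called. By direction, 44.4% of members rose in the F-class and 47.6% in the C-class, against 31.5% of all genes in both contrasts, while 3.17% fell against 27.3% and 28.5%. The difference between members and all genes was not tested. Without the primary fibroblast array the median member differences were 0.377 and 0.421, beside 0.122 and 0.120 for all genes. Without the secondary one they were 0.104 and 0.144, beside 0.104 and 0.084. The median member difference was 0.227 for the F-class and 0.253 for the C-class on the log2 scale, and the median over all tested genes was 0.098 and 0.089. Both contrasts share the same 2 fibroblast arrays. The fit also held iPSC and ESC, and its SEs and p-values use a spread pooled for each gene over all these groups. Most of its arrays were clones, so they reflect the spread among clones more than that between the 2 fibroblast arrays. In these bulk samples, fewer cells of a type and less RNA per cell cannot be told apart.

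Rpl7l1, the paralogue of Rpl7, showed the largest rise. It stood at 10.75 in primary and 10.02 in secondary fibroblasts, between 12.02 and 12.32 (median 12.26) in the F-class clones and between 11.97 and 12.38 (median 12.17) in the C-class clones. All 28 clones lay above both fibroblast arrays. The differences were 1.84 ± 0.129 (SE, adjusted p = 1.4e-13) and 1.78 ± 0.117 (adjusted p = 2.1e-14).

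Rplp0 forms the base of the ribosomal stalk, which recruits elongation factors. Its level was 11.22 and 10.27 in the fibroblasts, 11.66 to 12.33 (median 12.04) in F-class and 11.54 to 12.18 (median 11.88) in C-class clones, again with no overlap. It was 1.30 ± 0.190 higher in F-class (adjusted p = 6.1e-07) and 1.09 ± 0.172 higher in C-class clones (adjusted p = 1.9e-06). The probes of the stalk's other proteins could show little. Rplp1, the brightest member, lay where quantile normalization sets values alike, and differed by 0.00 ± 0.067 and 0.05 ± 0.060. Rplp2, detected on 3 of 6 F-class arrays and on no fibroblast array, was at least 1.03-fold higher in the F-class (adjusted p = 0.0028). Neither was read as unchanged mRNA.

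Rpl4, whose long extension lines the peptide exit tunnel, was at 11.66 and 11.81 in fibroblasts, 12.84 to 12.94 in F-class and 12.68 to 12.97 in C-class clones. No clone overlapped the fibroblasts, and the differences were 1.14 ± 0.093 and 1.05 ± 0.084 (adjusted p = 4.7e-12 and 2.1e-12). Rpl23, a large subunit protein that in human cells can bind MDM2, rose by 1.35 ± 0.132 and 1.32 ± 0.119, from 13.82 and 14.45 in the fibroblasts to 15.27 or more in every clone. Rpl7a rose by 1.00 and 0.99, and Rpl21 by 1.44 and 1.11. Rps15a, of the small subunit, read 4.75 (not detected) in primary and 6.54 in secondary fibroblasts, 6.96 to 7.83 in F-class and 6.29 to 7.81 in C-class clones, so the C-class range reached below the secondary fibroblasts. Rps19bp1, not itself a ribosomal protein, rose by 1.67 and 1.42. Rps6, the substrate of S6 kinase, rose by 0.62 ± 0.104 and 0.60 ± 0.094.

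By role, 13 of 31 large subunit members rose and 1 fell in the F-class contrast. Of the small subunit members 8 of 22 rose and 1 fell, and 4 of 6 paralogues and 2 of 3 stalk members rose. Over all genes tested 31.5% rose and 27.3% fell, and differences by role were not tested. By brightness, 14 of the 42 members in the brightest 1% rose, with a median difference of 0.166, while 12 of the 16 intermediate members rose, with a median of 0.773. Among all genes in these ranges 71.0% and 64.5% were called in either direction, with median differences of 0.402 and 0.219. The median of the bright members thus lay below that of all genes in their range, and the median of the intermediate members above it. Rpl14 and Rpl6, not detected in either fibroblast array, were at least 1.56-fold and at least 1.11-fold higher in F-class clones.

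Rpl22 and Rps24 were the members that fell. Rpl22 is a large subunit protein that in the mouse represses its own paralogue Rpl22l1. It was at 11.48 in primary and 12.47 in secondary fibroblasts and at 10.84 to 11.76 over the 28 clones, so the clones surrounded the primary array and all lay below the secondary one. The differences were -0.54 ± 0.226 (adjusted p = 0.039) in F-class and -0.66 ± 0.204 (adjusted p = 0.0062) in C-class clones. Rpl22l1 stood at 7.21 and 7.19 in fibroblasts and 7.57 to 8.08 in F-class clones, which did not overlap, a rise of 0.68 ± 0.282 (adjusted p = 0.039), and at 7.15 to 8.34 in C-class clones (0.57 ± 0.255, adjusted p = 0.054). Rps24 fell by 0.28 in F-class clones at its bright probe, but its primary fibroblast array (15.20) lay inside the F-class range of 15.01 to 15.34, and without the secondary fibroblast array the difference was 0.02.

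**Figure D2:**
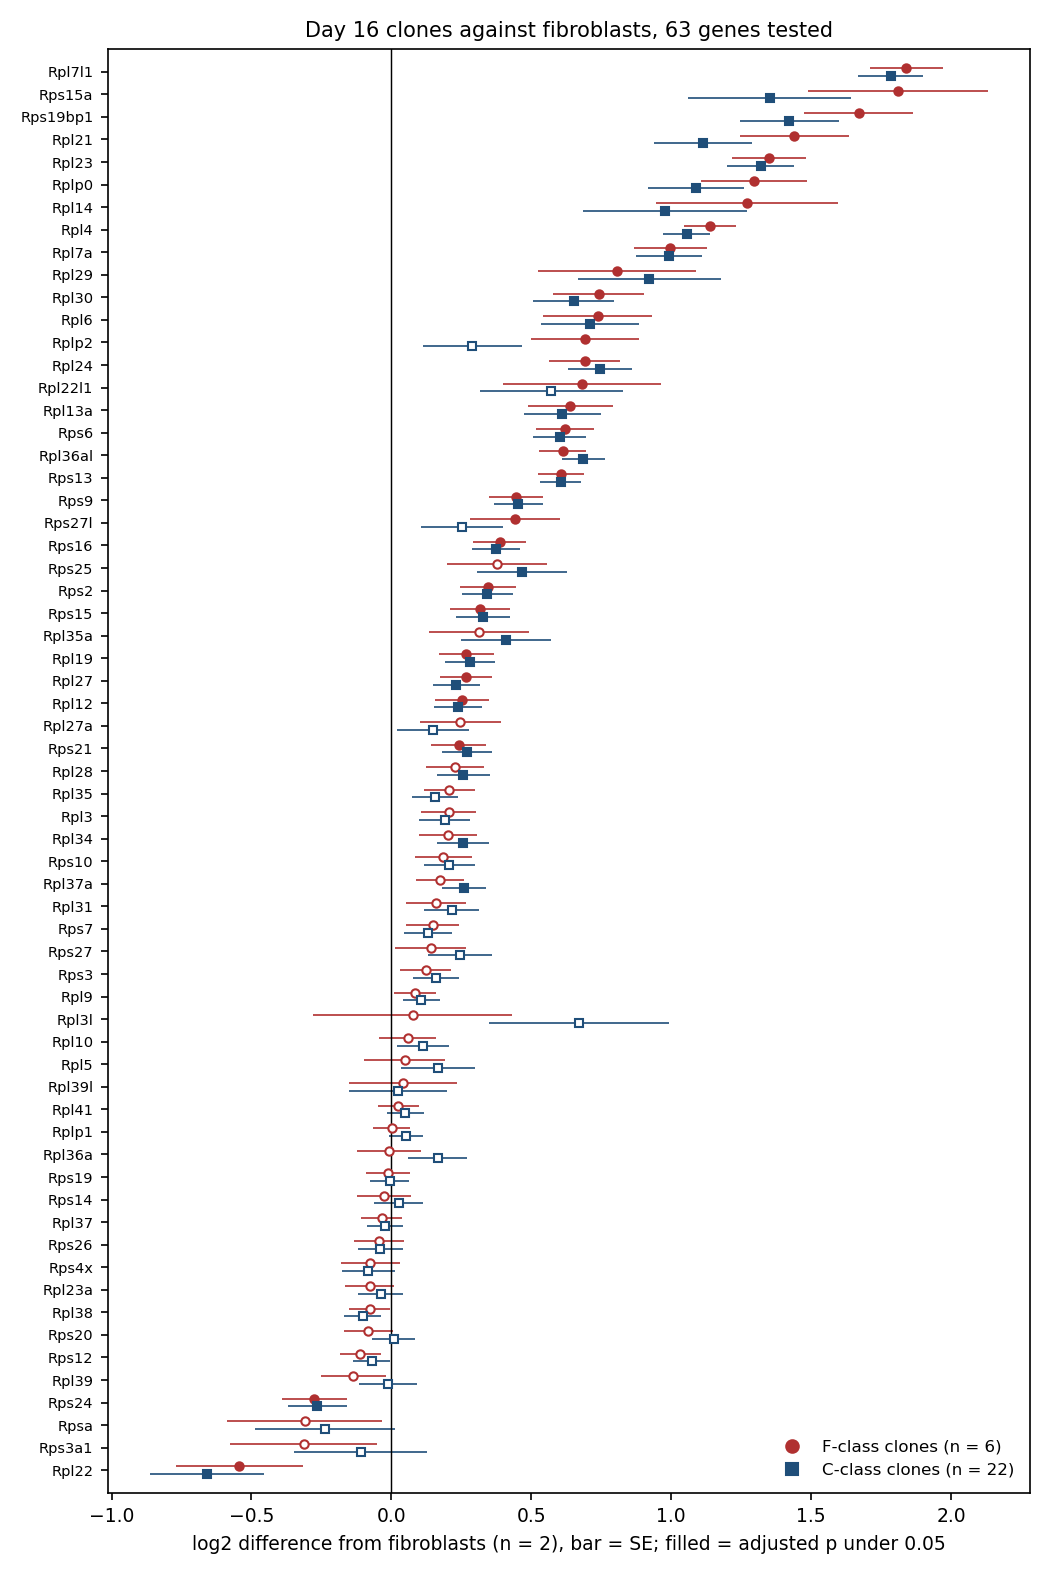
Log2 difference from the 2 fibroblast arrays for the 63 genes tested (y axis, ordered by the F-class value), as points with SE bars; circles are F-class clones (n = 6), squares C-class clones (n = 22), and filled symbols passed adjusted p under 0.05. Rpl7l1 is at the top with 1.84 and 1.78, and Rpl22 at the bottom with -0.54 and -0.66.

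Several calls rested on the secondary fibroblast array. Fewer members were called without it. The median member difference was then 0.104 for the F-class and 0.144 for the C-class, beside 0.104 and 0.084 for all genes. With the number of decimals of the deposited column as a term in the model, 23 and 22 were called, beside 53.7% and 53.6% of all genes. The F-class median was then 0.133, beside 0.122 for all genes. The macrophage marker mean of the secondary fibroblast array, 7.19, was the higher of the fibroblast pair, and its part in these results was not tested. Under scaling by the array median in place of quantile normalization, 45 members rose and 0 fell in the F-class and 33 rose and 1 fell in the C-class. Of all genes 58.4% and 59.9% were called.

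Other genes of ribosome production were set beside the ribosomal proteins. Over all genes tested 31.5% rose in each class of clones. Of 37 tested genes of nucleolar ribosome biogenesis, 36 rose and 0 fell in each class of clones, with median differences of 1.88 and 1.68. Nucleolin (Ncl), a nucleolar RNA-binding protein, rose by 2.52 ± 0.193, and fibrillarin (Fbl), the rRNA methyltransferase, by 2.25 ± 0.139 in F-class clones. Of 72 mitochondrial ribosomal protein genes, 59 rose and 1 fell in F-class and 55 rose and 0 fell in C-class clones (median 0.967 and 0.823). Of 34 translation factor genes, 26 and 25 rose and 1 fell in each, with medians of 0.694 and 0.648. All 4 ribosomal protein chaperone genes rose in both classes. Fau, the only ribosomal protein gene outside the symbol rule on the array, rose by 0.42 ± 0.123. The difference between these lists and the 66 genes was not tested.

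A second probe of the same gene often gave a larger difference than the brightest probe. Of the 15 members with more than 1 probe, 10 had another probe detected on all 51 arrays, 11 such probes in all. In F-class clones 9 of these 11 probes were higher than in fibroblasts and 0 lower, with a median of 1.34. The chosen probes of the same 10 genes gave 5 higher and 1 lower, with a median of 0.30. These alternative probes were examined after the values had been seen.

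Rps19, a small subunit protein mutated in human Diamond-Blackfan anemia, showed the widest gap. Its bright probe read 15.65 and 15.72 in fibroblasts and 15.59 to 15.76 in F-class clones, a difference of -0.01 ± 0.078. Its other probe, with a mean level of 8.12, read 6.56 and 5.61 in fibroblasts and 8.64 to 9.44 in F-class clones, a difference of 2.96 ± 0.227 (adjusted p = 1.1e-12). The groups overlapped at the first probe and not at the second. Rpl38, which in the mouse embryo is needed for translation of Hox mRNAs, gave -0.08 ± 0.074 at its bright probe and 1.65 ± 0.218 at the other. Rps24 gave -0.28 ± 0.116 at the bright probe and 1.57 ± 0.184 at the other, so the sign of its call depended on the probe. Not every pair parted in this way: Rpl21 gave 1.44 and 1.34, Rpl7l1 1.84 and 1.81, and the second-brightest probe of Rpl23 gave 0.00 against 1.35. Which transcripts each probe matches was not analysed here.

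**Figure D3:**
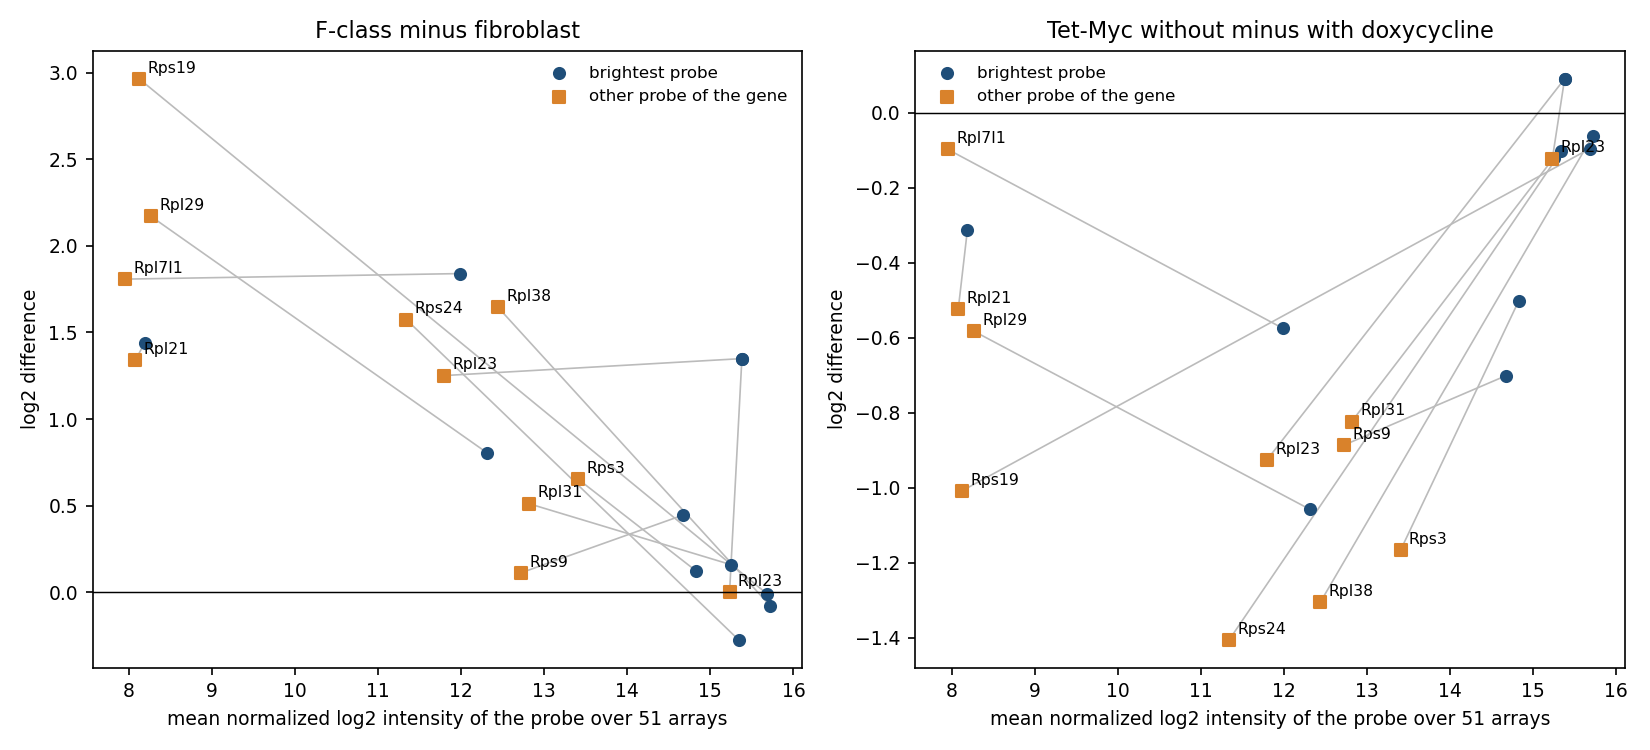
Log2 difference (y axis) against the mean level of the probe over 51 arrays (x axis) for 10 genes with another probe detected on every array; circles are the brightest probe of a gene, squares its other probes, lines join probes of a gene. In F-class clones against fibroblasts (left) the Rps19 probes sit at -0.01 and 2.96, and after Tet-Myc withdrawal (right) the Rps24 probes sit at -0.10 and -1.41.

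The doxycycline-independent iPSC and the ESC were compared with the fibroblasts and with the clones. Against fibroblasts, 13 members rose and 3 fell in iPSC (25.4% of 63, background 45.2%), and 10 rose and 0 fell in ESC (15.9%, background 48.6%). Both contrasts use the same fibroblast arrays. Rpl7l1 rose by 1.06 ± 0.158 in iPSC and 1.48 ± 0.158 in ESC, and Rpl23 by 0.82 ± 0.161 and 1.27 ± 0.161 at the chosen probes. The other Rpl7l1 probe gave 0.48 ± 0.229 in iPSC, which did not pass the test, and 1.11 ± 0.229 in ESC. The second-brightest Rpl23 probe gave -0.14 ± 0.110 and 0.01 ± 0.110, and a dimmer one 0.20 ± 0.173 and 0.50 ± 0.173. Of these Rpl23 values only the last passed the test. Rpl4 was at 12.74 and 12.97 in iPSC and 12.59 and 12.97 in ESC, above both fibroblast arrays, with differences of 1.12 ± 0.114 and 1.04 ± 0.114. Rplp0, in contrast, read 10.54 and 11.10 in iPSC and 10.68 and 10.46 in ESC, within the fibroblast range. The fall of Rpl29, Rpl38 and Rpl39 in iPSC was 0.84, 0.31 and 0.58 on the log2 scale at the chosen probes. At their other probes Rpl29 rose by 1.43 ± 0.254 (adjusted p = 3e-05) and Rpl38 by 1.30 ± 0.267 (adjusted p = 2e-04), so for these genes the direction depended on the probe. Under median scaling 6 members rose and 10 fell in iPSC, and 6 rose and 1 fell in ESC, beside 46.2% and 48.5% of all genes called. The median of all genes moved to -0.108 and -0.151, and the iPSC split turned with the scaling. Without the primary fibroblast array, the median member difference in ESC was 0.265, beside 0.029 for all genes.

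Clones set directly against ESC gave 15 members higher and 2 lower in the F-class and 16 higher and 1 lower in the C-class. Both counts are 27.0% of 63, and the background was 48.0% and 45.1%. Rplp0 rose most, with ESC at 10.68 and 10.46 and every clone at 11.54 or above. Its differences were 1.47 ± 0.190 in F-class (adjusted p = 2.4e-07) and 1.27 ± 0.172 in C-class clones (adjusted p = 5.7e-07). Rpl13a, a large subunit protein often used as a reference gene in PCR, stood at 13.11 and 12.56 in ESC and at 13.36 to 13.84 over the clones. It was 0.75 ± 0.152 and 0.72 ± 0.138 higher, with no overlap. Rpl22l1 was 0.96 ± 0.282 and 0.86 ± 0.255 higher, Rpl27a 0.66 and 0.56, and Rpl30 0.60 and 0.51. For the F-class, Rpl23a fell by 0.22 ± 0.088, and its difference was 0.24 under median scaling, so its direction turned with the scaling.

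These ESC contrasts depended on the scaling and on 1 ESC array. Under median scaling 55 members rose and 1 fell in F-class and 39 rose and 1 fell in C-class clones, beside 51.9% and 46.1% of all genes called. The median of all genes was 0.227 and 0.127. Without ESC replicate 2 the member medians were 0.050 and 0.047, beside 0.099 and 0.070 for all genes. Without ESC replicate 1 they were 0.168 and 0.181, beside 0.049 and 0.037. ESC replicate 2 was deposited with several decimals and the clones with 1. With number format as a term the member medians were 0.028 and 0.044, beside 0.072 and 0.051 for all genes. ESC replicate 1 was the one with the macrophage marker mean of 8.90 and fibroblast marker mean of 8.78, and the part of these markers in the calls was not tested. Of 37 nucleolar biogenesis genes 17 were higher and 1 lower in F-class clones than in ESC, and of 72 mitochondrial ribosomal protein genes 38 were higher and 3 lower. Over all genes tested 25.4% were higher and 22.6% lower.

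Rpl3l, the paralogue of Rpl3 expressed in striated muscle, separated ESC from most other groups. It read 7.66 and 7.18 in ESC, and was not detected in fibroblasts (4.77 and 4.54), in any F-class clone (4.62 to 4.84), at any day of the secondary course (4.47 to 4.78) or in iPSC (5.11 and 5.14). ESC was at least 3.74-fold above fibroblasts (adjusted p = 3.6e-06), at least 3.49-fold above the F-class (adjusted p = 3.6e-07) and at least 4.14-fold above iPSC (adjusted p = 0.00074). In C-class clones it was detected on 7 of 22 arrays, with levels from 4.57 to 6.70 (median 5.15), and lay below both ESC arrays in all 22 (difference -2.09 ± 0.321, adjusted p = 4e-06). Its paralogue Rpl3 held a mean level of 15.35 with an SD of 0.14 over the 51 arrays.

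The iPSC and ESC differed in few members: 1 was higher and 3 were lower in iPSC (6.35%, background 8.15%, of which 3.68% higher). Rps15a read 7.99 on both iPSC arrays and 6.10 and 5.99 in ESC, a rise of 1.95 ± 0.393 (adjusted p = 0.0016). Rpl3l, Rpl29 (-1.07 ± 0.345, adjusted p = 0.049) and Rps19bp1 (-0.76 ± 0.240, adjusted p = 0.046) were lower. Rpl29 was at 10.51 and 11.35 in iPSC and at 12.83 and 11.18 in ESC, so its groups overlapped. Its other probe gave 0.40 ± 0.254, of opposite sign, which did not pass the test. Under median scaling 2 members were higher and 2 lower, beside 9.20% of all genes called. The number of calls changed with the array left out. Without ESC replicate 1, ESC replicate 2 or the secondary iPSC line, the member medians were -0.040, -0.159 and -0.007. Those of all genes were -0.013, 0.013 and -0.007.

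Members were then compared between F-class and C-class clones. The test called 2 members higher and 2 lower in the F-class (6.35%, against 24.7% of all genes), and the median member difference was -0.008. Rplp2 was 5.09 to 6.01 (median 5.59) in F-class and 4.85 to 5.54 (median 5.13) in C-class clones, detected on 3 of 6 and 1 of 22 arrays, a difference of 0.40 ± 0.110 (adjusted p = 0.007). Rpl21 ran from 8.39 to 8.99 in F-class and 8.00 to 8.76 in C-class clones (0.33 ± 0.110, adjusted p = 0.027). Rpl36a was 13.89 to 14.16 and 13.86 to 14.37 (-0.17 ± 0.065, adjusted p = 0.045). For these 3 genes the ranges of the classes overlapped. Rpl3l was the fourth, but it was not detected on any F-class array and on 7 of 22 C-class arrays, so no size is given for it, and most Rplp2 values also lay at background. Of the 11 other probes of the 10 genes above, 4 were higher in the F-class and 0 lower, namely those of Rpl21 (0.44), Rpl29 (0.43), Rps19 (0.39) and Rpl7l1 (0.32), where the chosen probes gave 1 higher. Under median scaling 16 members were higher in the F-class and 0 lower, beside 31.1% of all genes called, with the median of all genes at 0.097. Without clone 1 or clone 2 of the F-class, 1 member was called, beside 18.1% and 18.8% of all genes.

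**Figure D4:**
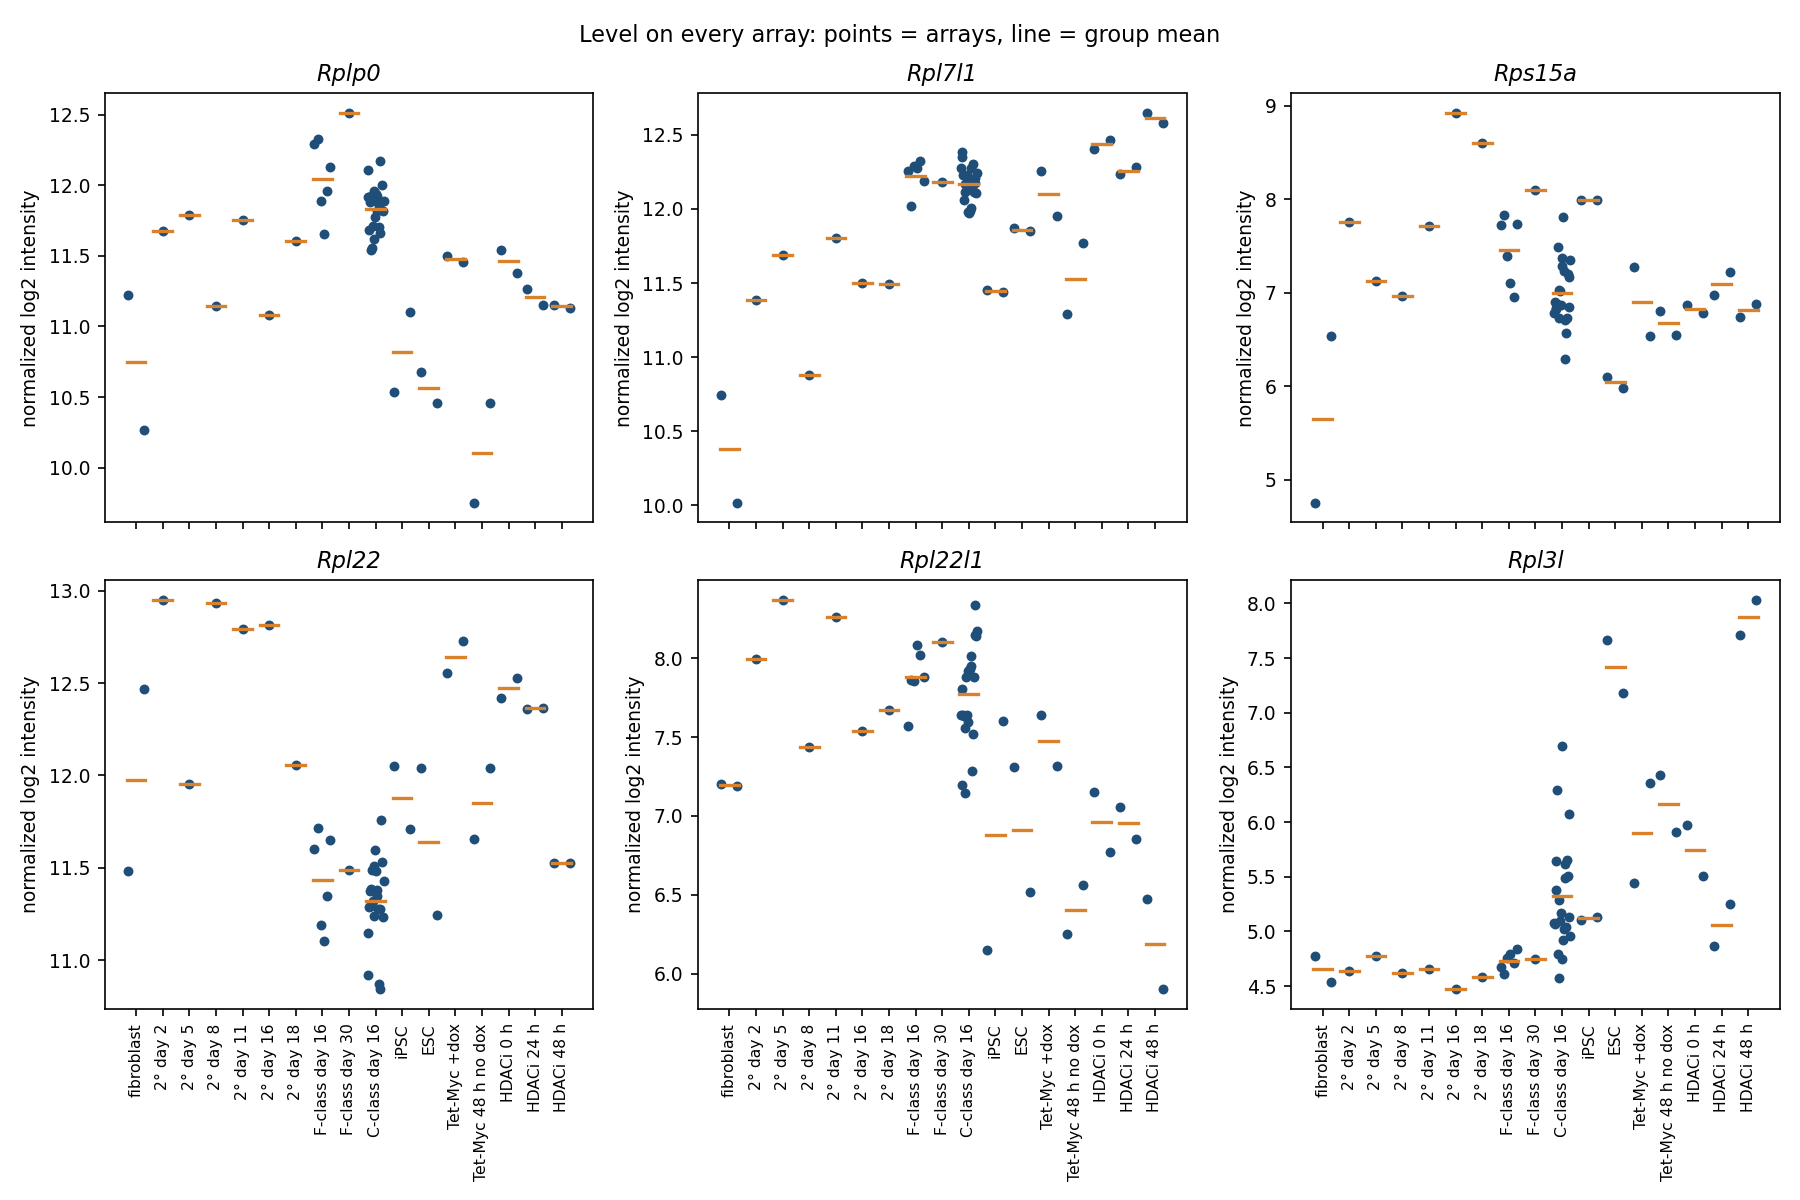
Normalized log2 level (y axes) of Rplp0, Rpl7l1, Rps15a, Rpl22, Rpl22l1 and Rpl3l on each of the 51 arrays by group (x axes); points are arrays and lines group means. The ESC and 48 h HDACi arrays lie at 7.18 or above for Rpl3l, while the day 16 F-class clones and the fibroblasts stay at 4.84 or below.

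The secondary course followed 1 line through time with 1 array a day, so it has no replicate check and no test. All values are differences from the secondary fibroblasts at day 0. At day 2 the median member was already 0.47 higher, and at day 5, day 8, day 11, day 16 and day 18 the medians were 0.30, 0.35, 0.40, 0.34 and 0.27. The median over all genes stayed between -0.02 and 0.11. Under median scaling the member medians at day 8 and day 16 were 0.14 and 0.20. The day 0 array had the lowest median level of the 55 always-detected members among the 51 arrays, 14.48, and the higher macrophage marker mean given above, whose part in these differences was not tested. At day 5 that median level was 14.73, beside 14.75 in the primary fibroblasts. Of 58, 59, 58, 60, 59 and 61 members detected, 6, 5, 3, 7, 4 and 6 were at least 2-fold higher at these days, and 0 were at least 2-fold lower. Over all detected genes, 14.0%, 15.4%, 15.1%, 17.3%, 18.9% and 19.6% were at least 2-fold higher (28.6%, 31.2%, 30.2%, 35.2%, 36.9% and 38.7% in either direction).

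Rpl4 was at least 2-fold higher at every day, by 1.45, 1.38, 1.29, 1.68, 1.08 and 1.40 on the log2 scale. Rpl7l1 followed it with 1.37, 1.67, 0.86, 1.79, 1.48 and 1.48. Rplp0 read 10.27 at day 0 and then 11.68, 11.79, 11.15, 11.76, 11.08 and 11.60. Rps15a was highest late, at 8.92 on day 16 and 8.60 on day 18 against 6.54 at day 0, above every other array of the series. Rpl22 stayed high, with 12.95, 11.95, 12.93, 12.79, 12.81 and 12.06, above the day 16 primary clones, whose highest value was 11.76. Rps3a1, a small subunit protein, was at 11.00 at day 0 and between 10.73 and 11.59 afterwards. Between day 16 and day 30, 0 members moved 2-fold in clone 1 of the F-class (background 3.93%). The median difference was 0.03, and Rpl22l1 moved most among detected genes, from 7.57 to 8.10.

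The Tet-Myc lines, by their name lines with a doxycycline-controlled Myc, were compared with and without doxycycline. After 48 h without doxycycline 11 of 59 tested members fell and 0 rose (18.6%). The background was 15.3% in either direction, 7.38% for rises and 7.91% for falls. The median member fell by 0.253 on the log2 scale, against 0.018 for all 10151 genes tested. In both lines 47 of the 59 members were lower without doxycycline (79.7%, against 36.3% of all genes), and the line medians were -0.363 and -0.183. The Myc probe itself read 6.83 and 6.37 with doxycycline and 5.93 and 6.57 without it in line 1 and line 2, a difference of -0.36 ± 0.255 (adjusted p = 0.38). The labels and file headers do not say whether that probe detects the transgene.

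Rplp0 fell most. It was at 11.50 in line 1 and 11.46 in line 2 with doxycycline, and at 9.75 and 10.46 without it, a difference of -1.37 ± 0.227 (adjusted p = 0.011). Rpl13a went from 14.00 and 13.86 to 12.61 and 12.98 (-1.14 ± 0.164, adjusted p = 0.0066). Rpl27a, the large subunit gene mutated in the sooty foot ataxia mouse, went from 12.64 and 12.46 to 11.11 and 11.73 (-1.14 ± 0.224, adjusted p = 0.018). In these 3 genes both lines fell, line 1 further than line 2, and the groups did not overlap.

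The paralogue pair Rpl22 and Rpl22l1 fell together. Rpl22 went from 12.55 and 12.73 to 11.66 and 12.04 (-0.79 ± 0.167, adjusted p = 0.022), and Rpl22l1 from 7.64 and 7.31 to 6.25 and 6.56 (-1.07 ± 0.249, adjusted p = 0.030). Rpl29 fell by 1.06, Rps15 by 0.82, Rpl7a by 0.80, Rps9 by 0.70, Rpl19 by 0.67 and Rps6 by 0.61. Rps6 was at 15.15 in both lines with doxycycline and at 14.37 and 14.72 without. Rpl5, the Mdm2-binding protein, differed by -0.17 ± 0.167, Rplp1 by 0.03 ± 0.129, and Rpl38 by -0.06 ± 0.130 at its bright probe. None of these last 3 passed the test.

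**Figure D5:**
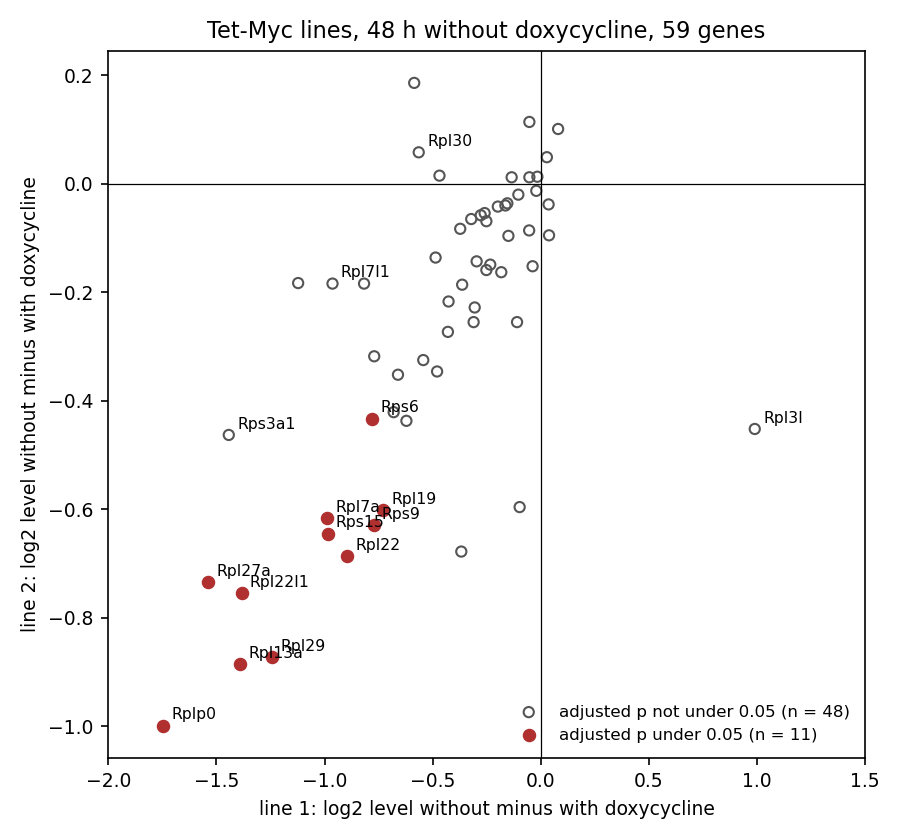
Log2 level without minus with doxycycline in Tet-Myc line 1 (x axis) and line 2 (y axis) for the 59 genes tested; filled points are the 11 genes with adjusted p under 0.05. All 11 lie in the lower left quadrant, with Rplp0 the furthest out, and Rpl3l lies at the right.

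By brightness, 4 of the 42 brightest members and 7 of the 15 intermediate ones fell, with medians of -0.186 and -0.665. Over all genes in these ranges 9.68% and 16.5% were called in either direction, with medians of -0.125 and -0.037. Of the 11 other probes of the 10 genes above, 7 fell and 0 rose, with a median of -0.89, where the chosen probes of the same genes gave 2 falls and a median of -0.22. The dimmer Rps24 probe went from 11.58 and 11.64 to 9.73 and 10.69 (-1.41 ± 0.281, adjusted p = 0.019), while its bright probe differed by -0.10. The dimmer Rpl38 probe fell by 1.30 ± 0.283, that of Rps3 by 1.17 ± 0.303 and that of Rps19 by 1.01 ± 0.253. Under median scaling 32 members fell and 0 rose, beside 15.5% of all genes called, with a median of -0.711 against -0.031 for all genes.

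The number of calls depended on single arrays. Leaving out the line 1 array with doxycycline, line 1 without it or line 2 with it gave member medians of -0.239, -0.188 and -0.234. Leaving out line 2 without doxycycline gave -0.327. The medians of all genes in these fits were 0.002, -0.038, -0.037 and -0.026. Pluripotency markers moved in the same samples, with a mean over 8 genes of 9.89 to 10.38 with doxycycline and 11.65 to 11.78 without, and the part of this shift in the falls was not tested. Over all genes tested 7.91% fell and 7.38% rose. Elsewhere in the translation machinery, 13 of 72 mitochondrial ribosomal protein genes fell and 0 rose. Of 37 nucleolar biogenesis genes 4 fell and 1 rose, and of 32 translation factor genes 3 fell and 1 rose. Among these, Polr1a, the largest subunit of RNA polymerase I, fell by 0.87 ± 0.145, Eif4b, an initiation factor that is itself a TOP mRNA in mammals, by 1.37 ± 0.231, and Eef2, the elongation factor that binds the stalk, by 1.02 ± 0.268.

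The annotated start regions of the 10 fallen genes with a sequence are shown, in order of their fall, because a TOP tract lies at the start of the transcript. RefSeq promoter sequences (GRCm38.p6) were found for 55 of the 64 ribosomal protein members, and the window from 50 bases before to 20 bases after the annotated start was searched on the gene's own strand for its longest unbroken run of C and T, printed in capitals.
Rplp0, chr5:115559417-115559486, plus strand: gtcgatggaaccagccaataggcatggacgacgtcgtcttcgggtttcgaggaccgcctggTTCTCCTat
Rpl13a, chr7:45128726-45128795, minus strand: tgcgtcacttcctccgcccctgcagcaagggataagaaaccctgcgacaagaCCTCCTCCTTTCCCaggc
Rpl27a, chr7:109519145-109519214, plus strand: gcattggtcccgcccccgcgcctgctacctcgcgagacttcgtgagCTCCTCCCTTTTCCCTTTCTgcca
Rpl22l1, chr3:28805458-28805527, plus strand: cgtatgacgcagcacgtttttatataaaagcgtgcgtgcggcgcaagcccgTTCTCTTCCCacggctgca
Rps15, chr10:80292381-80292450, plus strand: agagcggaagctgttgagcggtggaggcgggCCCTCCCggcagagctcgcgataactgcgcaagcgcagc
Rpl7a, chr2:26910757-26910826, plus strand: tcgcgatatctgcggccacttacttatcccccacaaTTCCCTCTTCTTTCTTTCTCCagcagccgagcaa
Rpl22, chr4:152325676-152325745, plus strand: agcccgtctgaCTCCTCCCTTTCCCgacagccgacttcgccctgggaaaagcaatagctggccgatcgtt
Rps9, chr7:3703991-3704060, plus strand: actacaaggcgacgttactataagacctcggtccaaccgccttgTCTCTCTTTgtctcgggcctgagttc
Rpl19, chr11:98026660-98026729, plus strand: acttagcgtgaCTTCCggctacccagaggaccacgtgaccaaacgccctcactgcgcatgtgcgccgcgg
Rps6, chr4:86857348-86857417, minus strand: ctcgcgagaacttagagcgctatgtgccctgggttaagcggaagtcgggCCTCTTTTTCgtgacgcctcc

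In these windows the run is 7 letters long in Rplp0, 14 in Rpl13a and Rpl22, 20 in Rpl27a, 10 in Rpl22l1, 7 in Rps15, 21 in Rpl7a, 9 in Rps9, 5 in Rpl19 and 10 in Rps6. The Rpl22 and Rpl19 runs in capitals begin at position -39 from the annotated start. The Rpl19 window holds another run of 5 letters directly before the annotated start. It is not in capitals, since only the first of equal runs was marked. A run of at least 8 was present in 29 of the 55 member windows (52.7%), against 27.8% of the windows of all 27025 genes in the table. Among the members tested on Tet-Myc withdrawal, it was present in 7 of the 10 that fell and had a sequence and in 20 of the 40 that did not pass the test. The hexamer CACGTG, the E-box that Myc can bind, which reads the same on both strands, was present within the 300-base promoter sequence of 5 of 55 members (9.09%) and in 7.24% of all genes. Of the printed genes Rpl13a and Rpl19 had it. The letters CCGGAAGT, a core of ETS factor sites searched on both strands, whose reverse complement can share letters with a run of C and T, were present in 9 members (16.4%) and in 4.00% of all genes. These matches describe the letters of the windows, whose annotated starts may lie some bases from the true ones.

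Few members passed the test under the HDAC inhibitor. At 24 h limma called 0 of 59 members (background 2.13% called). An unadjusted p under 0.05 was reached by 0 members and by 1660 of the 10151 genes tested. At 48 h 1 member rose and 1 fell (3.39%, background 28.7%). Among the other probes, that of Rps19 rose by 1.22 ± 0.253 (adjusted p = 0.011) and one of Rpl23 fell by 0.67 ± 0.205 (adjusted p = 0.044). Over the chosen probes the median member difference was -0.097 against 0.020 over all genes. The median level of 55 ribosomal protein members detected on all arrays was 15.06 and 15.10 at 0 h and 14.75 and 14.79 at 48 h. Under median scaling it was 14.90 and 15.02 at 0 h and 14.88 on both arrays at 48 h, so the size of this shift depended on the scaling.

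Rpl22 was the member that fell. It was at 12.42 and 12.53 at 0 h, 12.36 and 12.37 at 24 h and 11.53 on both arrays at 48 h, a difference of -0.95 ± 0.167 (adjusted p = 0.0053) with no overlap between 0 h and 48 h. Rpl22l1 read 7.15 and 6.77 at 0 h and 6.47 and 5.90 at 48 h, which did not pass the test (-0.77 ± 0.249, adjusted p = 0.052). Rpl3l was the member that rose. It read 5.97 and 5.51 at 0 h, 4.87 and 5.25 at 24 h, where it was not detected, and 7.71 and 8.03 at 48 h, a difference of 2.13 ± 0.347 (adjusted p = 0.0039). Both 48 h arrays stood above both 0 h arrays and above the ESC arrays at 7.66 and 7.18.

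Of the genes tied to ribosome stress, Rps27l, the p53-induced paralogue of Rps27, differed by 0.01 ± 0.237 at 48 h and Rpl5 by -0.23 ± 0.167, and neither passed the test. Of 10 tested p53 target genes 5 fell and 0 rose, and Cdkn1a, the cell cycle inhibitor p21, fell by 3.48 ± 0.313. Of 37 nucleolar biogenesis genes 4 rose and 1 fell, and of 72 mitochondrial ribosomal protein genes 6 rose and 3 fell. Over all genes tested 14.2% rose and 14.5% fell at 48 h. The mean of the 8 pluripotency markers was 9.54 and 11.06 at 0 h and 12.48 and 12.52 at 48 h in the same cultures, and its part in the 2 calls was not tested. With no background correction 1 member rose and 7 fell at 48 h, beside 29.9% of all genes called.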

How the data were processed

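RNA (QIAGEN RNeasy, checked on a Bioanalyser, per the labels' protocols) was measured on 51 Illumina MouseRef-8 arrays. The deposited values were probe intensities and detection p-values, per the file headers. The authors' deposited table of scaled intensity values has the same distribution on every array, with its scaling method not stated, and served as an alternative only. Of 25697 probes, 23978 had 1 gene symbol, 1719 had none and 0 had several, and all 66 members matched RefSeq by Entrez ID. Intensities were corrected and quantile normalized with neqc in limma 3.58.1 (R 4.3.3, offset 16), where limma derives the negative controls from the detection p-values. The log2 values were computed here from the deposited intensities. Genes with a detection p under 0.05 on at least 2 arrays entered 1 of 2 fits with eBayes and Benjamini-Hochberg adjustment over all genes tested: a reference fit (fibroblasts, both clone classes, iPSC and ESC) and a perturbation fit (Tet-Myc and HDACi). A call is an adjusted p under 0.05, and single arrays were compared by a 2-fold difference with no test. "At least" folds compare against the detection limit where no array of a group detected a gene. Intensities carry no counts, and the number of arrays limits the precision.

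Members, lists and tests were chosen with earlier results of these data known. Named by rule were the 5 largest called rises and falls per comparison, members picked by role (stalk, paralogue pairs, Rpl5, Rps6, Rpsa, Rpl38, Rpl13a, Rps19, the rule's Rpl11 and Rps18 not being among the 66) and those with the 5 highest and 3 lowest SDs. Other named members, and all second probes, were chosen after their values were seen. Same-numbered Tet-Myc arrays come from the same line per the labels, and their deviations correlated at 0.502. The models were tested on simulated data. Alternatives were median scaling, no background correction, the deposited scaled values, other detection filters, the mean of a gene's probes, number format as a term, 1 joint fit, the replicate block and leaving out each replicate.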

Additional observations from a re-analysis of the deposited data

Results flagged for a closer look

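Of the members tested against fibroblasts, 4 differed between the classes of clones by the direct test of F-class against C-class. The fitted F-class minus C-class difference was 0.33 for Rpl21, 0.40 for Rplp2, -0.17 for Rpl36a and -0.60 for Rpl3l on the log2 scale, against a background of 24.7% of genes called. The values of Rplp2 and Rpl3l are not read as sizes of a class difference, since most of their arrays were not above background, with Rplp2 detected on 3 of 6 F-class and 1 of 22 C-class arrays and Rpl3l on 0 of 6 and 7 of 22. Of 34 sets of F-class values checked for a clone far from the others, 0 held one.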

How the results depend on the processing

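Under median scaling in place of quantile normalization, 16 members were called for F-class against C-class, 56 for F-class and 40 for C-class against ESC, and 32 for Tet-Myc withdrawal. At 48 h of HDACi, 8 were called without background correction, 8 with the authors' deposited values, 7 in 1 joint fit, and 4 with the mean of a gene's probes or with genes detected on every array. With number format as a term 9 were called for C-class against ESC and 2 for iPSC against ESC. The stricter detection filter left 2 for F-class against C-class and 1 for iPSC against ESC, and genes detected on every array left 2 and 2. In 1 joint fit Tet-Myc withdrawal called 22. All 11 Tet-Myc calls were also made under median scaling, no background correction, the deposited values, both other filters, the mean of probes, the joint fit and the replicate block. They were not all made when single Tet-Myc arrays were left out. HDACi at 24 h gave 0 calls under every alternative run.

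With the replicate block, 14 of 59 members fell for Tet-Myc (lines as pairs), beside 25.2% of all genes called in either direction. At 48 h of HDACi 5 of 59 were called, Rpl22l1 (-0.78) and Rps27 (-0.41) among them, beside 38.3% of all genes. The HDACi pairing rests on a shared number only (correlations of 0.259, 0.092 and 0.081).

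Leaving out in turn each array of the groups of 2 to 6 arrays (the 22 C-class clones were not left out) gave 14 to 36 called members for F-class and 15 to 36 for C-class against fibroblasts, 12 to 20 for iPSC and 11 to 23 for ESC against fibroblasts, 1 to 4 for F-class against C-class, 10 to 19 for F-class and 6 to 19 for C-class against ESC, 2 to 11 for iPSC against ESC, 5 to 20 for Tet-Myc, 0 to 0 for HDACi at 24 h and 2 to 3 at 48 h.

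Of 4035 alternative values for 304 named results, 25 changed sign with a call on at least 1 side, and others changed sign with no call on either. Under median scaling these were Rps24 (0.09) for F-class against fibroblasts and, for F-class against ESC, Rpl23a (0.24), Rplp1 (0.41), Rpl3 (0.39), Rpl5 (0.41), Rps12 (0.43) and Rpl41 (0.38). With the mean of probes they were Rps24 (0.65), Rpl38 (0.78) and Rps19 (1.48) for F-class, Rps24 (0.72), Rpl38 (0.82) and Rps19 (1.29) for C-class, Rpl29 (0.29), Rpl38 (0.49) and Rps19 (0.65) for iPSC, and Rpl38 (0.57) and Rps19 (0.48) for ESC, all against fibroblasts. With number format as a term they were Rpl5 (-0.29) for F-class against fibroblasts and Rps27 (-0.03) and Rpl29 (-0.11) for C-class against ESC. Leaving out the primary and then the secondary fibroblast array moved Rps27l in F-class clones from -0.05 to 0.93 and Rps24 from -0.57 to 0.02 in F-class and from -0.57 to 0.03 in C-class clones. Leaving out ESC replicate 2 and then 1 moved Rpl29 for C-class against ESC from -0.13 to 1.52. The causes were not tested. Bright probes near the top of the intensity range limit what these arrays resolve.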
